A study of Mus musculus with 18 samples.

Results

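A set of 124 transcripts that includes many leukocyte genes was read in 1 of the 6 libraries made from mouse MII oocytes, the library labelled wild type (WT) replicate 3. The set was chosen by measured values. A gene was a member where it reached 30 CPM or more (CPM is the deposited expected count per 1000000 expected counts of the library) in WT replicate 3 and stayed under 1 CPM in each of the other 5 oocyte libraries. The rule took 124 of 55471 gene IDs, which is 0.224%, and 124 of the 4616 genes at 30 or more CPM in WT replicate 3, which is 2.69%. With each of the other libraries in turn as the high one, the same rule found 0, 1 and 0 genes in the 3 libraries labelled KO and 0 and 0 genes in WT replicates 1 and 2. These counts and the levels below that define membership are descriptions without a test.

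The oocyte libraries comprised 3 labelled Isca2 -/- (KO) and 3 labelled wild type. Isca2 acts in mitochondria, where it helps to build iron-sulfur clusters, and an MII oocyte is an ovulated egg arrested at the second meiotic metaphase. The protocol text gives Isca2+/- females that received 6.5 IU of PMSG and, 45 to 47 h later, 5 IU of hCG before mating with Isca2+/- males, and it describes blastocysts, with a full-length amplification kit for single cells. The number of oocytes and of females behind each library, the animals' age and strain background and the construction of the Isca2 alleles are not stated in the labels, and sperm and blastocyst samples were not analysed here. The targeted gene, Isca2, had 2.30, 3.15 and 3.97 CPM in the libraries labelled KO, against 5.66 CPM in WT replicate 3 and 0.62 and 0.51 CPM in WT replicates 1 and 2. It was not lower in the libraries labelled KO than in WT replicates 1 and 2, so those labels are used below only as names.

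Myeloid leukocytes, which include macrophages, monocytes, neutrophils and eosinophils, belong to a shared branch of the blood cell lineages and carry receptors for complement, immunoglobulin and growth factors. Microbial products, tissue damage or cytokines switch on interleukin 1, chemokines and enzymes of lipid mediators through factors such as NF-kB and AP-1, while interferons switch on a separate group of genes. The ovary and the oviduct hold resident macrophages, and ovulation draws further leukocytes to the follicle.

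The 124 members together held 12595 CPM in WT replicate 3, against 15.9, 12.7 and 23.4 CPM in the libraries labelled KO and 22.3 and 18.4 CPM in WT replicates 1 and 2. In WT replicate 3 this was 1.26% of all counts, with an exact 95% binomial interval of 1.255% to 1.264% that covers counting error only. The sums of the other 5 libraries were 0.101% to 0.186% of the sum in WT replicate 3. The total of expected counts was 26849790 in WT replicate 3, against 17792157 to 30240350 in the other libraries, so 1 of those was deeper. Genes over 1 CPM numbered 13372 in WT replicate 3, against 10951 to 11904 in the other libraries. In bulk libraries such as these, more cells of a type and more RNA per cell cannot be told apart.

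**Figure D1:**
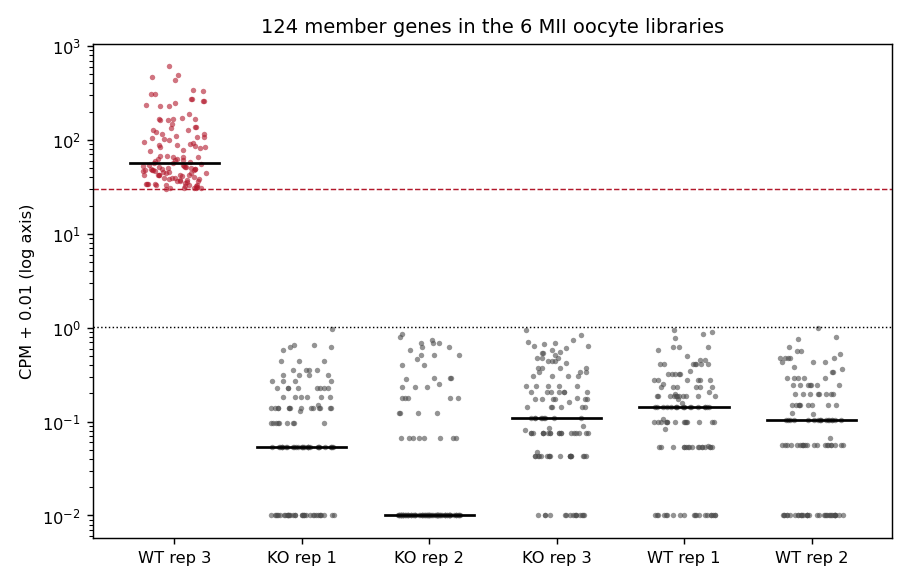
CPM plus 0.01 on a log axis of each of the 124 members in each oocyte library, with WT replicate 3 first, 1 point per gene and a bar at the median. The dashed and dotted lines mark 30 and 1 CPM. In WT replicate 3 the members lie between 30.4 and 607 CPM, and in the other 5 libraries every member lies under 1 CPM, as the rule requires.

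Within WT replicate 3 the members had a median of 56.3 CPM, and 38 of them reached 100 CPM. The 10 members with the most counts held 30.4% of the members' total. Compared per length, as deposited TPM, they ran between 5.37 for Tgfbr2 and 1698 for Retnlg, with a median of 39.1 TPM. The level in WT replicate 3 was 38.8 to 1810 times that of the highest other library, with a median of 245 times, where counts under 3 were set to 3. These ratios follow from the rule.

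Low counts of the members were found outside WT replicate 3. Members with no count numbered 34, 84 and 15 in the libraries labelled KO and 20 and 35 in WT replicates 1 and 2. KO replicate 2, with the most members at 0, was also the shallowest library, and the part of depth in these numbers was not tested. In all, 22 members had at least a fractional count in each of these 5 libraries, and 2 members, AY036118 and the sugar transporter Slc2a6, had none in any of them. A count of 0 allows up to 0.0992 to 0.169 CPM in these libraries, taking 3 counts as the limit.

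The 5 marker genes given with the set were all members. Adgre1, which encodes the F4/80 antigen of mouse macrophages and eosinophils, had 312 CPM in WT replicate 3, against 0.26, 0 and 0.43 CPM in the libraries labelled KO and 0.22 and 0.093 CPM in WT replicates 1 and 2. Csf1r, the receptor for macrophage colony-stimulating factor, had 100 CPM in WT replicate 3, against 0.12, 0.28 and 0.55 CPM in KO replicates 1 to 3 and 0.074 and 0 CPM in WT replicates 1 and 2. Lyz2, the lysozyme of myeloid cells, had 135 CPM in WT replicate 3, against 0, 0 and 0.20 CPM in KO replicates 1 to 3 and 0.22 and 0.093 CPM in WT replicates 1 and 2. A single library was high for each of them, and no other library came near it. Itgam, the alpha chain of the CD11b integrin, had 77.5 CPM in WT replicate 3, against 0.13, 0 and 0.066 CPM in the libraries labelled KO and 0 and 0 CPM in WT replicates 1 and 2. Il1b, the secreted cytokine interleukin 1 beta, had 466 CPM in WT replicate 3, against 0.22, 0 and 0.23 CPM in KO replicates 1 to 3 and 0.84 and 0.47 CPM in WT replicates 1 and 2. The highest value outside WT replicate 3 among these 5 genes was thus that of Il1b in WT replicate 1.

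**Figure D2:**
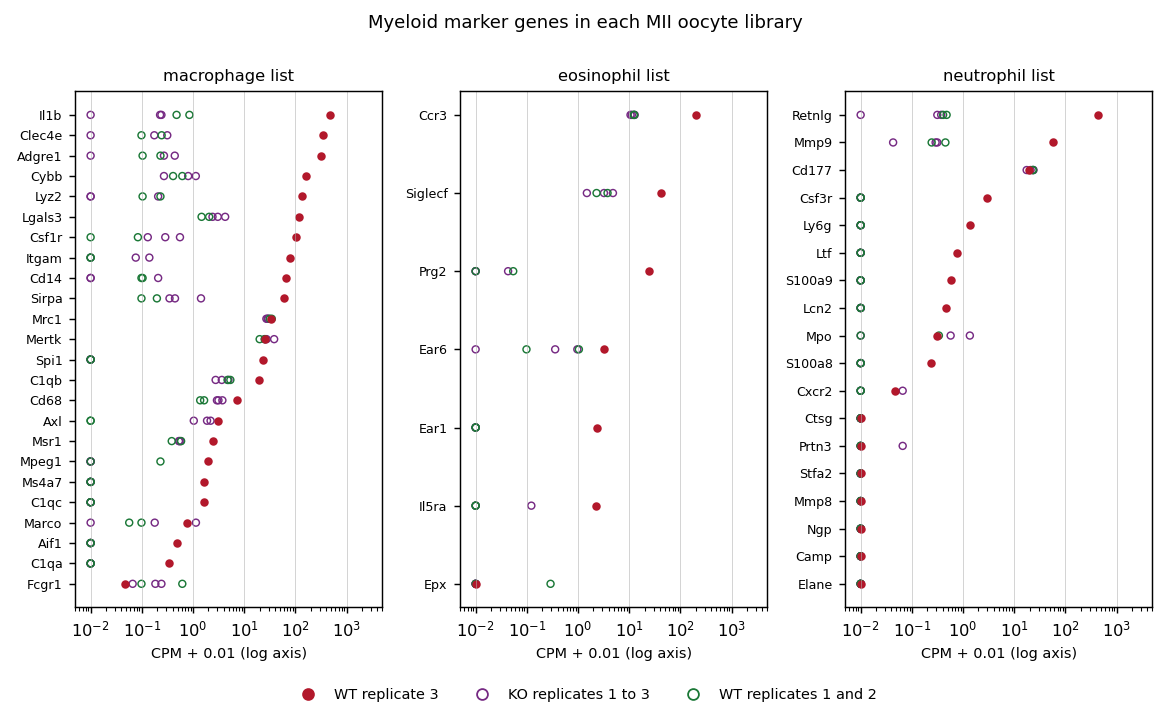
CPM plus 0.01, on a log axis, of the macrophage, eosinophil and neutrophil list genes, with filled points for WT replicate 3 and open points for each of the other 5 libraries. Adgre1, Csf1r, Lyz2, Itgam and Il1b lie between 77.5 and 466 CPM in WT replicate 3 and under 1 CPM in the other libraries.

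Secreted factors were the role with the most transcript per length. The 7 members placed in it summed to 2988 TPM in WT replicate 3. Retnlg, a small secreted protein of the resistin family known from mouse neutrophils, had 434 CPM in WT replicate 3, against 0.30, 0 and 0.36 CPM in the libraries labelled KO and 0.40 and 0.47 CPM in WT replicates 1 and 2. Cxcl2, a chemokine that draws neutrophils, had 334 CPM in WT replicate 3, against 0.30, 0.11 and 0.30 CPM in KO replicates 1 to 3 and 0.40 and 0.23 CPM in WT replicates 1 and 2. Ccl9, a chemokine that binds the receptor Ccr1, had 229 CPM in WT replicate 3, against 0.043, 0 and 0.53 CPM in KO replicates 1 to 3 and 0.62 and 0.42 CPM in WT replicates 1 and 2. The lower members of the role were Il1a, the other agonist form of interleukin 1, at 52.3 CPM, Ltb, the membrane subunit of lymphotoxin, at 42.0 CPM, and Ebi3, a subunit shared by heterodimeric cytokines, at 39.3 CPM in WT replicate 3.

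Several other secreted factors with high counts in WT replicate 3 missed the rule only because 1 or more of the other libraries passed 1 CPM. Ccl6, a chemokine of the same family as Ccl9, had 1547 CPM in WT replicate 3, against at most 2.84 CPM elsewhere. Il1rn, the natural antagonist of the interleukin 1 receptor, had 1135 CPM in WT replicate 3, against at most 1.64 CPM. Retnla, a resistin-like protein of alternatively activated macrophages, had 282 CPM in WT replicate 3, against at most 1.19 CPM, and the chemokine Ccl3 had 184 CPM in WT replicate 3, against at most 2.78 CPM. In all, 226 genes reached 30 CPM in WT replicate 3 and were at least 10-fold above the highest other library, and 102 of them missed the rule.

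Receptors for cytokines and chemoattractants made up 14 members, between 30.4 CPM for P2ry14, a receptor for UDP-sugars, and 272 CPM for Csf2rb in WT replicate 3. Csf2rb encodes the beta chain shared by the receptors for interleukin 3, interleukin 5 and GM-CSF. It had 272 CPM in WT replicate 3, against 0.26, 0 and 0.32 CPM in the libraries labelled KO and 0.40 and 0.28 CPM in WT replicates 1 and 2. Its near-identical neighbour Csf2rb2 had 86.9 CPM in WT replicate 3, and the split of reads between that pair is uncertain. Ptafr, the receptor for platelet-activating factor, had 259 CPM in WT replicate 3, against 0.22, 0 and 0.066 CPM in KO replicates 1 to 3 and 0.31 and 0.14 CPM in WT replicates 1 and 2. The chemokine receptor Ccr1 was at 106 CPM, the complement receptors C3ar1 and C5ar1 at 67.2 and 49.5 CPM, the common gamma chain Il2rg at 51.7 CPM and the interleukin 33 receptor Il1rl1 at 32.5 CPM in WT replicate 3. No member of this role passed 0.843 CPM in another library.

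Activating and inhibitory receptors with their signalling proteins formed the largest role, with 17 members at 31.1 to 166 CPM in WT replicate 3. Tyrobp, also called DAP12, and Fcer1g, the Fc receptor gamma chain, are small adaptors that pass signals through ITAM motifs. Tyrobp had 115 CPM in WT replicate 3, against 0, 0 and 0.30 CPM in the libraries labelled KO and 0.31 and 0.14 CPM in WT replicates 1 and 2. Fcer1g had 94.0 CPM in WT replicate 3, against 0.043, 0 and 0.17 CPM in KO replicates 1 to 3 and 0.31 and 0.19 CPM in WT replicates 1 and 2. Per length these short transcripts stood among the leading members of WT replicate 3, at 468 TPM for Tyrobp and 295 TPM for Fcer1g. Syk, the kinase that binds phosphorylated ITAMs, was at 49.4 CPM and Ptprc, the pan-leukocyte phosphatase CD45, at 120 CPM. Inhibitory receptors stood beside them, with Pirb at 40.0 CPM, Fcgr2b at 31.1 CPM, Cd300a at 62.5 CPM and the near-identical pair Lilr4b and Lilrb4a at 166 and 116 CPM, for which the split of reads is uncertain.

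Pathogen-sensing members were Clec4e, also called Mincle, which binds mycobacterial glycolipid, with its partner Clec4d, the lipopolysaccharide co-receptor Cd14, the scavenger receptor Olr1 and the Toll pathway inhibitor Irak3. Clec4e had 340 CPM in WT replicate 3, against 0.30, 0 and 0.17 CPM in the libraries labelled KO and 0.088 and 0.23 CPM in WT replicates 1 and 2. The others were at 34.2 CPM for Clec4d to 81.9 CPM for Olr1. Adhesion was represented by the integrin chains Itgb2 at 147 CPM, Itgam at 77.5 CPM and Itgal at 51.2 CPM, and by Cd44 at 128 CPM in WT replicate 3. A further 13 members act on actin or small GTPases, led by Rac2 at 169 CPM and Coro1a at 163 CPM, both largely restricted to blood cells. The GTPase regulator Arhgdib was at 84.0 CPM and the actin regulator Gmfg at 49.1 CPM, and per length Gmfg reached 165 TPM in WT replicate 3. The surface glycoprotein Cd24a, which is also carried by cells outside the blood, was at 166 CPM in WT replicate 3, against at most 0.60 CPM elsewhere.

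The phagocyte NADPH oxidase makes superoxide and all 6 genes of its list, which includes Rac2, lay over 5-fold above the highest other library in WT replicate 3, as did 2.26% of all gene IDs. Of these 6 genes, 4 were members, and every member passes this criterion by its choice. Its cytosolic subunits Ncf1 and Ncf4 were members at 305 and 48.1 CPM in WT replicate 3, and neither passed 0.133 CPM in another library. The membrane subunits missed the rule, with Cybb at 164 CPM in WT replicate 3, against at most 1.12 CPM elsewhere, and Cyba at 117 CPM in WT replicate 3, against at most 2.64 CPM elsewhere. The list summed to 855 CPM in WT replicate 3, against 1.08 to 3.93 CPM in the other libraries.

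Lipid mediator enzymes were few and high. Pla2g7, which breaks down platelet-activating factor, had 493 CPM in WT replicate 3, against 0.96, 0.11 and 0.43 CPM in the libraries labelled KO and 0.57 and 0.98 CPM in WT replicates 1 and 2. Alox5ap, the activator protein of leukotriene synthesis, had 229 CPM in WT replicate 3, against 0.17, 0 and 0.30 CPM in KO replicates 1 to 3 and 0.44 and 0.28 CPM in WT replicates 1 and 2. Alox15, the lipoxygenase of mouse peritoneal macrophages and eosinophils, had 191 CPM in WT replicate 3, against 0.087, 0.056 and 0.50 CPM in KO replicates 1 to 3 and 0.62 and 0.047 CPM in WT replicates 1 and 2. Cyp4f18, which inactivates leukotriene B4, was at 270 CPM in WT replicate 3 and at most 0.31 CPM elsewhere. Other enzymes and inhibitors included the member with the most counts, Serpinb2, a protease inhibitor induced in activated macrophages, at 607 CPM in WT replicate 3, against 0.61, 0 and 0.36 CPM in KO replicates 1 to 3 and 0.27 and 0.47 CPM in WT replicates 1 and 2. Tgm2, a transglutaminase, was at 248 CPM, Acod1, which makes itaconate, at 91.9 CPM, the histamine-forming Hdc at 90.0 CPM and the gelatinase Mmp9 at 57.1 CPM.

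The survival genes Bcl2a1b, Bcl2a1d and Bcl2a1a encode near-identical relatives of Bcl2 and are known NF-kB targets. The split of reads among them is uncertain. They had 168, 103 and 58.5 CPM in WT replicate 3 and at most 0.24, 0.19 and 0.20 CPM in any other library. The 250 bases before the annotated start of each are shown because these paralogs were high together and each holds a match to the PU.1 motif GAGGAAGT, PU.1 being the factor that specifies myeloid cells. The sequences are from RefSeq on GRCm38.p6, in the direction of transcription, with matches to PU.1 and to the AP-1 motif as searched, TGANTCA, in capitals. That pattern takes any base at its middle, and each AP-1 match printed here reads TGAATCA. Binding of AP-1 to these stretches was not tested.
Bcl2a1b: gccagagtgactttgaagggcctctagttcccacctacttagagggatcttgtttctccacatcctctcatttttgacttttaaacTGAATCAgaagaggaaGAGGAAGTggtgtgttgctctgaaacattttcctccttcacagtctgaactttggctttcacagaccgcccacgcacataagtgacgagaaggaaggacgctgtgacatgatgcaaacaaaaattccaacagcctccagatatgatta
Bcl2a1d: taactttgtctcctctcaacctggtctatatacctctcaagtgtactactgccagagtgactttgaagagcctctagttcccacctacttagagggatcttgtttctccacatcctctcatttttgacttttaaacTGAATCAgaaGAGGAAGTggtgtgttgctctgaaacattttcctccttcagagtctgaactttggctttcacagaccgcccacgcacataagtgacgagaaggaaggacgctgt
Bcl2a1a: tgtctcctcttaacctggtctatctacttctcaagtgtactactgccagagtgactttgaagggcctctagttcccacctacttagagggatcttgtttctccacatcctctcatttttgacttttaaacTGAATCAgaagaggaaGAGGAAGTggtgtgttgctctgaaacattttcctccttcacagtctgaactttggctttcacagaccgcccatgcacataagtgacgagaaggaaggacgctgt
These windows lie at chr9:89199023-89199272 on the plus strand for Bcl2a1b, chr9:88731851-88732100 on the minus strand for Bcl2a1d and chr9:88956670-88956919 on the plus strand for Bcl2a1a. The AP-1 match starts 16, 10 and 16 bases before the PU.1 match in Bcl2a1b, Bcl2a1d and Bcl2a1a.

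The secreted factors Cxcl2, Ccl9 and Ltb are shown next because each holds a match to the NF-kB motif, GGG then any 2 bases then TTTCC on either strand, before its start. Capitals mark the NF-kB matches and, in Ccl9, a match to the AP-1 pattern as well, again TGAATCA.
Cxcl2: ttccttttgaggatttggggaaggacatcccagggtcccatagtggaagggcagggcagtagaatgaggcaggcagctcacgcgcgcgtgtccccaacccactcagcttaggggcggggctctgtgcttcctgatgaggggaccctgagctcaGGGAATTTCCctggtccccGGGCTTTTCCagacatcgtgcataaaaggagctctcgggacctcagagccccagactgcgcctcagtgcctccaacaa
Ccl9: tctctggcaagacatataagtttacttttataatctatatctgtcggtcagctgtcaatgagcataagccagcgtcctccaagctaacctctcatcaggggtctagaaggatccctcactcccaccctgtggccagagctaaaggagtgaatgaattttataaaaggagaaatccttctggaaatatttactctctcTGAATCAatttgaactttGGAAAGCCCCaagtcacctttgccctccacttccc
Ltb: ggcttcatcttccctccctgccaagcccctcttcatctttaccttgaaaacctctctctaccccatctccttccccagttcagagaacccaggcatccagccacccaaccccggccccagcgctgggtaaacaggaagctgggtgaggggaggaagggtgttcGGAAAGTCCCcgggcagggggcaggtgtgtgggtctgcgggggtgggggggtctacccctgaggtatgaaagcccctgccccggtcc
The windows lie at chr5:90903649-90903898 on the plus strand for Cxcl2, chr11:83578637-83578886 on the minus strand for Ccl9 and chr17:35194257-35194506 on the plus strand for Ltb. Cxcl2 holds a pair of NF-kB matches, and Ccl9 and Ltb hold 1 each on the opposite strand.

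Over windows of 300 bases, 250 before and 50 after each annotated start, 95 members had an entry in the RefSeq promoter table and 29 had none. The PU.1 motif was found in 13 of the 95 members (13.7%), against 997 of all 27025 genes of the table (3.69%), and the 3 Bcl2a1 paralogs were among the 13. The NF-kB motif was found in 7 members (7.37%), against 1.89% of all genes. The AP-1 motif, with any base at its middle, was found in 17 members (17.9%), against 8.97% of all genes. The C/EBP motif TTGCNNAA, found in 13.7% of members and 12.2% of all genes, and the interferon-type motif ISRE, a pair of GAAA runs with any 2 bases between them, found in 5.26% of members and 3.99% of all genes, were closer to the shares over all genes. Both strands were searched, overlapping matches of different motifs were each counted, and a match is only a run of letters. The median GC content was 53.8% in members' windows and 52.7% in all windows.

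**Figure D3:**
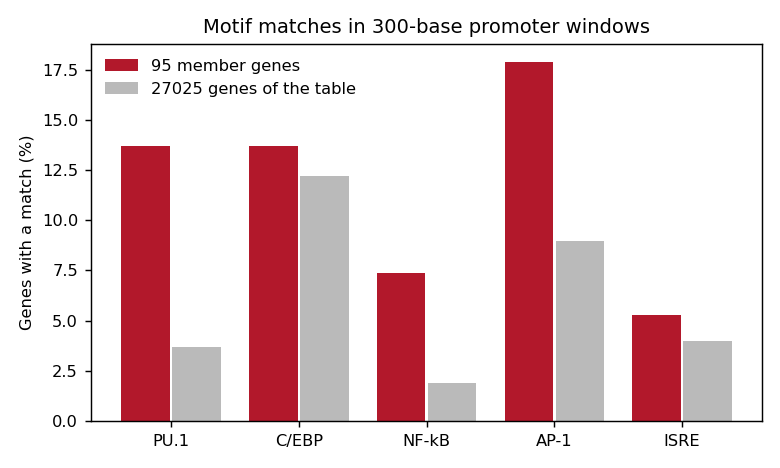
Share in percent of genes whose promoter window holds a match to each of 5 motifs, for the 95 members with an entry and then for all 27025 genes of the table. PU.1 was found in 13.7% of members against 3.69% of all genes, and C/EBP in 13.7% against 12.2%.

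Transcription factors among the members were Junb, an AP-1 subunit, at 163 CPM, Irf5, a regulator of inflammatory cytokines, at 42.5 CPM, and Egr2, an immediate early factor, at 34.3 CPM in WT replicate 3. Feedback inhibitors accompanied them, namely Tnfaip3 of the NF-kB pathway at 108 CPM, and Cish and Socs3 of the cytokine receptor pathway at 42.5 and 42.2 CPM. Tnfaip3 had 0.043, 0 and 0.033 CPM in the libraries labelled KO and 0.40 and 0.75 CPM in WT replicates 1 and 2. Spi1, which encodes PU.1, was no member at 22.9 CPM in WT replicate 3, and it was at 0 in the other 5 libraries. Transporters among the members included the lactate exporter Slc16a3 at 110 CPM, the phagosomal metal transporter Slc11a1 at 87.8 CPM and the glucose transporter Slc2a3 at 44.6 CPM.

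No role was assigned to 23 members. The highest of these were Gm10801 at 257 CPM and the nuclear long noncoding RNA Neat1 at 237 CPM in WT replicate 3. Per length the second of them was Fxyd5, a regulator of ion transport, at 228 TPM after Gm10801 at 1368 TPM. F630028O10Rik, a long noncoding RNA on chromosome X that RefSeq lists with the synonym mir-223, was at 65.6 CPM, against 0.043, 0 and 0.066 CPM in the libraries labelled KO and 0.27 and 0.093 CPM in WT replicates 1 and 2. Neighbouring members within 100000 bases of each other formed 8 groups, among them Il1a with Il1b, Clec4d with Clec4e, and Ncf4 with Csf2rb2 and Csf2rb.

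Marker lists were used to ask which leukocyte type the library held. A gene was counted where it reached 1 CPM and lay over 5-fold above the highest of the other 5 libraries in WT replicate 3. That held for 1255 of 55471 gene IDs (2.26%), and for 9.39% of the genes at 1 CPM or more in WT replicate 3. All 124 members pass by their choice, so the counts below are also given for genes that are no member, of which 1131 of 55347 (2.04%) passed. A 10-fold criterion held for 755 gene IDs (1.36%). Of the 25 pan-leukocyte genes, 23 passed, made up of the 11 members and 12 of the 14 others. The pan-leukocyte list summed to 3202 CPM in WT replicate 3, against 209 to 235 CPM in the other libraries.

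Genes of macrophages were present in part. Of the 25 macrophage genes, 14 passed, made up of the 7 members and 7 of the 18 others, and the list summed to 1960 CPM in WT replicate 3, against 65.7 to 85.5 CPM elsewhere. The 5 given markers are among its members. Those of the 18 that passed included Cybb, Lgals3 and Sirpa, at 164, 118 and 59.7 CPM in WT replicate 3. Several defining macrophage genes were under 1 CPM there, with the complement gene C1qa at 0.34 CPM, Aif1 at 0.48 CPM, Fcgr1 at 0.037 CPM and Marco at 0.74 CPM. The related C1qc passed at 1.64 CPM in WT replicate 3, against 0 elsewhere. C1qb was at 19.3 CPM, against 2.75 to 5.35 CPM elsewhere, and did not pass. Mertk was at 25.8 CPM in WT replicate 3, against 20.0 to 38.4 CPM elsewhere, and Mrc1 at 33.3 CPM, against 27.1 to 34.5 CPM, so both were within the range of the other libraries. Of 18 genes of resident macrophages, 2 passed, including the member Alox15, and 1 at 10-fold.

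Genes of eosinophils were higher in WT replicate 3, though none was a member. Of 7 eosinophil genes 5 passed, and the list summed to 280 CPM in WT replicate 3, against 13.1 to 16.4 CPM in the other libraries. Ccr3, the eotaxin receptor, had 206 CPM in WT replicate 3, against 11.3, 12.8 and 10.6 CPM in the libraries labelled KO and 12.5 and 12.2 CPM in WT replicates 1 and 2. Siglecf, a lectin of mouse eosinophils and alveolar macrophages, had 42.6 CPM in WT replicate 3, against 1.48, 3.20 and 4.79 CPM in KO replicates 1 to 3 and 3.76 and 2.29 CPM in WT replicates 1 and 2. Prg2, the major basic protein of eosinophil granules, had 24.3 CPM in WT replicate 3, against 0, 0 and 0.033 CPM in KO replicates 1 to 3 and 0.044 and 0 CPM in WT replicates 1 and 2. Each of these was highest in WT replicate 3, while Epx, the eosinophil peroxidase, was at 0 there.

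Most genes of neutrophils did not pass. Of 18 neutrophil genes 4 passed, made up of the members Retnlg and Mmp9 and 2 of the 16 others, and the list summed to 518 CPM in WT replicate 3, most of it Retnlg, against 17.9 to 25.7 CPM elsewhere. The 2 others were Ly6g and Csf3r, at 1.34 and 2.94 CPM in WT replicate 3 and 0 elsewhere. S100a8 and S100a9, abundant proteins of neutrophils, were at 0.22 and 0.56 CPM in WT replicate 3, and the granule genes Elane, Camp, Ngp and Mmp8 were at 0. Of 13 monocyte genes 6 passed, with no member, and 2 passed at 10-fold. That list summed to 326 CPM in WT replicate 3, against 324 to 353 CPM elsewhere. Much of this sum came from genes read in all 6 libraries. Plac8 was at 160 CPM in WT replicate 3, against 240 to 283 CPM elsewhere, and Gda at 63.9 CPM, against 47.2 to 71.0 CPM. Among the 6 genes that passed, Fn1 was the highest, at 32.5 CPM in WT replicate 3 against at most 6.22 CPM elsewhere. Ly6c2 and Ccr2, markers of inflammatory monocytes, were at 0.19 and 1.23 CPM in WT replicate 3. Dendritic cell genes passed in 2 of 15 cases and mast cell or basophil genes in 2 of 9, including the member Hdc and 1 at 10-fold, with the mast cell protease gene Cpa3 at 0.

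Lymphoid genes did not pass in any case, with 0 of 18 for T cells, 0 of 12 for B cells and 0 of 11 for NK cells. Red cell genes passed in 0 of 9 cases, platelet genes in 1 of 8 (0 at 10-fold), endothelial genes in 0 of 11, epithelial genes in 0 of 9, osteoclast genes in 0 of 8 and granulosa or cumulus genes in 1 of 15. Of 13 fibroblast or mural genes 7 passed at low levels, led by Dcn at 20.7 CPM and Col3a1 at 13.7 CPM in WT replicate 3, and that list summed to 91.0 CPM, against 32.7 to 48.2 CPM elsewhere. The part of fibroblast RNA in the set was not tested. Of 13 oocyte genes 0 passed, and that list summed to 22899 CPM in WT replicate 3, against 19860 to 21897 CPM in the other libraries, so oocyte genes were abundant in all 6 libraries. Single oocyte genes nonetheless stood apart in WT replicate 3. Zp2, a protein of the egg coat, had 2305 CPM in WT replicate 3, against 195, 150 and 124 CPM in KO replicates 1 to 3 and 608 and 107 CPM in WT replicates 1 and 2. Its partner Zp3 had 1350 CPM in WT replicate 3, against 261, 254 and 263 CPM in KO replicates 1 to 3 and 355 and 254 CPM in WT replicates 1 and 2. Zp1 was at 659 CPM in WT replicate 3, against 113 to 322 CPM elsewhere, and the maternal factor Nlrp5 at 1730 CPM, against 393 to 936 CPM. WT replicate 3 was thus the highest library for these 4 oocyte genes as well, and also for Bmp15, Ooep, Padi6 and Npm2. For Gdf9, Mos and Zar1 it lay within the range of the other libraries. Oosp1 and Dppa3 were lowest in WT replicate 3, at 2499 CPM against 3154 to 3752 CPM elsewhere and at 6237 CPM against 7425 to 9431 CPM. The relation of these oocyte genes to the members was not tested.

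**Figure D4:**
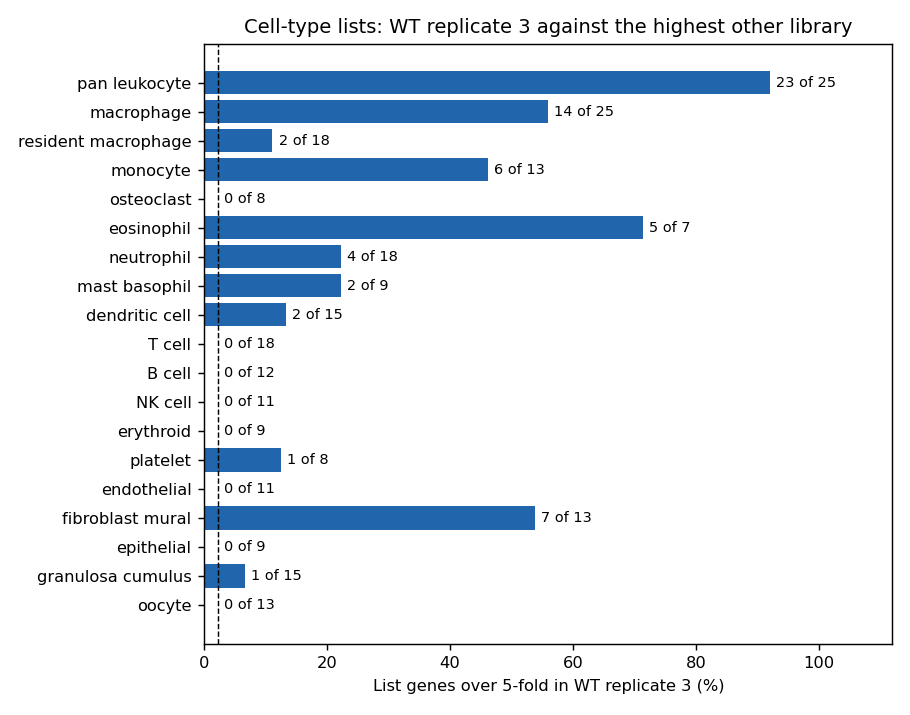
Percent of the genes of each cell type list that reached 1 CPM and lay over 5-fold above the highest other library in WT replicate 3, with the count beside each bar and the share over all gene IDs, 2.26%, as a dashed line. Pan-leukocyte genes passed in 23 of 25 cases, eosinophil genes in 5 of 7, macrophage genes in 14 of 25, and T cell, B cell and NK cell genes in none. The bars include members, which pass by their choice, 11 in the pan-leukocyte list, 7 in the macrophage list and 0 in the eosinophil list.

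Of the 124 members, 56 were in at least 1 of all 35 lists, of cell types, activation states and functions, and 68 in none. The lists thus describe only some of them. Fewer were in the 19 cell type lists. Those with members were the lists of pan-leukocyte genes (11), macrophages (7), neutrophils (2), resident macrophages (1) and mast cells or basophils (1). No list of monocytes, eosinophils, dendritic cells or lymphocytes held a member. No list of a single myeloid type passed in full. Among genes that are no member, eosinophil genes passed in 5 of 7 cases, monocyte genes in 6 of 13 and macrophage genes in 7 of 18. Neutrophil genes that are no member passed in 2 of 16 cases, beside 7 of 13 for fibroblast or mural genes. With members, which pass by their choice, macrophage genes passed in 14 of 25 cases and neutrophil genes in 4 of 18. Some genes passed at low levels, such as Ccr2 at 1.23 CPM, C1qc at 1.64 CPM and Il5ra at 2.27 CPM in WT replicate 3. At 10-fold, members included, 11 of 25 macrophage, 4 of 7 eosinophil and 2 of 13 monocyte genes passed. Neutrophil genes then passed in 3 of 18 cases and fibroblast or mural genes in 6 of 13, so the order of the lists depended on the criterion. A mixture of types within 1 library cannot be told apart from 1 type with an incomplete set. Genes such as Adgre1, Alox15, Csf2rb and Itgam are known from more than 1 of these types.

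Inflammatory genes were the activation list with the most passing genes, 26 of 36, made up of the 8 members and 18 of the 28 others. The list summed to 3205 CPM in WT replicate 3, against 69.8 to 97.0 CPM in the other libraries. Il1rn, Il1b, Clec4e and Cxcl2 led it at 1135, 466, 340 and 334 CPM, and Il6, Tnf and Ptgs2 were lower, at 13.7, 7.19 and 29.9 CPM in WT replicate 3. Nos2, the inducible nitric oxide synthase, was at 0 and Il12b at 0.45 CPM, within the range of the other libraries. The NF-kB subunit genes Nfkb1 and Nfkb2 missed the rule, at 121 CPM in WT replicate 3 against at most 8.73 CPM elsewhere, and at 80.1 CPM against at most 1.17 CPM.

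Genes that answer interferon passed in 5 of 24 cases (3 at 10-fold) and none was a member. Cxcl10 had 12.6 CPM in WT replicate 3, against 0.043, 0 and 0 CPM in the libraries labelled KO and 0 and 0 CPM in WT replicates 1 and 2. Isg15 was at 0.34 CPM and Ifit2 and Ifit3 were at 0 in WT replicate 3. Genes of alternative activation, the state driven by interleukins 4 and 13, passed in 8 of 19 cases, made up of the members Egr2 and Tgm2 and 6 of the 17 others, among them Retnla at 282 CPM in WT replicate 3. Arg1, another gene of that state, was at 8.98 CPM, and Chil4, Ccl22, Ccl24 and Cd163 were at 0 in WT replicate 3. The inflammatory and the alternative genes thus stood side by side in this library.

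**Figure D5:**
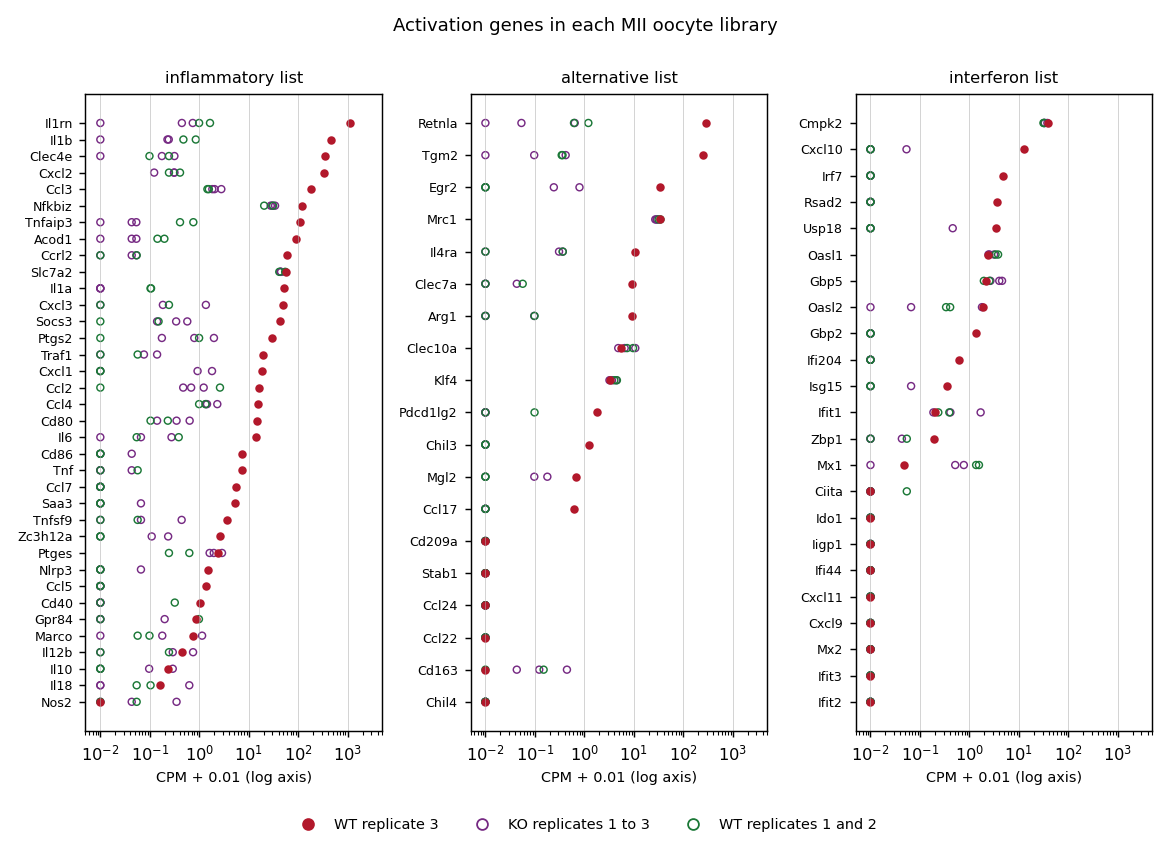
CPM plus 0.01, on a log axis, of the inflammatory, alternative and interferon list genes, with filled points for WT replicate 3 and open points for each of the other 5 libraries. Il1b and Cxcl2 stand at 466 and 334 CPM in WT replicate 3, Retnla at 282 CPM, and Isg15 at 0.34 CPM.

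Lists by function showed where the members stood among their pathways. Of 40 chemokine and cytokine genes 20 passed, the 4 members and 16 of the 36 others, and of 34 cytokine and chemokine receptors 20 passed, the 7 members and 13 of the 27 others. Integrin and adhesion genes passed in 14 of 16 cases, the 6 members and 8 of the 10 others. Fc receptor and ITAM signalling genes passed in 21 of 32 cases, the 10 members and 11 of the 22 others, and complement genes in 9 of 13, the 4 members and 5 of the 9 others. Pattern recognition genes passed in 15 of 35 cases, the 4 members and 11 of the 31 others. Transcription factors of macrophages passed in 13 of 29 cases, of which 1 was a member, and lysosomal genes in 8 of 25 (5 at 10-fold), of which 2 were members. Genes of lipid-handling phagocytes passed in 6 of 20 cases with no member.

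Antigen presentation genes passed in 12 of 17 cases (7 at 10-fold), with no members. The class I heavy chains H2-D1 and H2-K1 were at 574 and 261 CPM in WT replicate 3, against at most 2.48 and 11.9 CPM elsewhere, while the class II gene H2-Ab1 and its chaperone Cd74 were at 1.19 and 1.23 CPM. Among 15 iron and heme genes, 3 passed. These were the member Slc11a1, the ferritin heavy chain Fth1, at 1807 CPM in WT replicate 3 against 44.0, 75.9 and 49.6 CPM in the libraries labelled KO and 21.1 and 17.5 CPM in WT replicates 1 and 2, and the heme oxygenase Hmox1, at 35.8 CPM against at most 1.85 CPM. The ferritin light chain Ftl1 was at 884 CPM, against 83.4 to 288 CPM, and did not pass. Of 5 sex-linked genes 1 passed. Xist, the RNA of the inactive X chromosome of female somatic cells, was at 20.7 CPM in WT replicate 3, against 0 to 1.10 CPM elsewhere. The other 4 genes of the list were under 1 CPM in WT replicate 3, but only 2 of them, the Y-linked Ddx3y and Uty, were at 0.

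Just inside the upper threshold in WT replicate 3 lay P2ry14 at 30.4 CPM, Ctss at 30.7 CPM, A530064D06Rik and Rab20 at 30.9 CPM and Fcgr2b at 31.1 CPM. Just outside it lay Def6 at 29.98 CPM, Itm2c at 29.9 CPM, Ifitm1 at 29.7 CPM, Dock2 at 29.6 CPM and Sla at 29.4 CPM. At the lower threshold, the highest other library gave 0.98 CPM for Pla2g7, 0.93 CPM for Itgal, 0.88 CPM for Ehd1 and 0.84 CPM for Il2rg just inside. It gave 1.07 CPM for Map2k3 and Dbnl, 1.09 CPM for Tapbp and 1.12 CPM for Cybb and Cd53 just outside. The edges thus divided genes of like level, and the leukocyte genes Cybb, Cd53 and Dock2 were among those left out.

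The libraries labelled KO were also compared with those labelled WT across all genes. The edgeR quasi-likelihood test with Benjamini-Hochberg adjustment called 2 of 13680 genes (0.0146%), 0 higher and 2 lower in the libraries labelled KO. Of the 124 members, 14 passed the filter on low counts and 0 were called. Their fitted log2 fold changes were -9.68 to -4.65, and edgeR gave each an adjusted p of 0.77. With limma-voom 0 members were called, and DESeq2 left the p-values of all 14 blank. Without a filter all 124 members were tested and again 0 were called, among 2 of 25270 genes (0.00791%). The rule used the same libraries, so the members' signs in this comparison were fixed by their choice, and their p-values cannot be read as a test. Without WT replicate 3 the same test called 92 of 14122 genes (0.651%), 81 higher and 11 lower in the libraries labelled KO, and 0 members. DESeq2 on all 6 libraries called 81 higher and 20 lower, where edgeR on the same libraries called 0 higher and 2 lower. The number of calls thus depended on the fit and on WT replicate 3.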

How the data were processed

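Messenger RNA of 6 MII oocyte libraries was analysed, 3 labelled KO and 3 labelled WT by their titles. Whether replicates are separate animals is not stated, and p-values then measure only library-to-library spread, which may be technical. Per the file headers, the authors deposited RSEM expected counts, TPM and FPKM with gene lengths for 55471 Ensembl gene IDs. The submitters' processing notes name Trim Galore 0.4.5, STAR 2.6.1c, RSEM 1.3.1, DESeq2 1.42.1 and mm10/GRCm38. Neither an annotation release nor a strand setting was given in the sources used here. Antisense or overlapping genes therefore cannot be separated, and RSEM divides reads among near-identical genes. FPKM was not used. A few list genes and members are not reported by name here or in the plots.

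CPM was the expected count over the library's total, without a pseudocount. Symbols matched 55144 IDs, and promoters came from RefSeq on GRCm38.p6. The depth, 17792157 to 30240350 counts, places 1 CPM at 17.8 to 30.2 counts. The deposited TPM served comparisons between genes and 1 alternative. Named genes were the 5 markers, the 25 members with the highest TPM, up to 6 members per list, list genes at 30 CPM that missed the rule or under 1 CPM where an absence is described, 5 genes each side of a threshold, and Isca2. Members, the 35 lists and tests were chosen with earlier results of these data known. The 5-fold criterion, the roles, the promoters printed and any gene named beyond that rule were chosen after values were seen.

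The KO and WT labels were compared on expected counts, rounded to integers and tested with edgeR 4.0.16 in R 4.3.3 (filterByExpr, TMM factors, quasi-likelihood test, adjusted p threshold 0.05). The script was checked on simulated data. Alternatives were DESeq2 1.42.0, limma-voom (limma 3.58.1), RLE factors or unscaled totals in edgeR, other filters, a replicate block, leaving out each library, and other thresholds for membership.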

Additional observations from a re-analysis of the deposited data

How the results depend on the processing

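The number of members depended on the thresholds. It was 278 at 10 CPM and 38 at 100 CPM in WT replicate 3, 89 with under 0.5 CPM and 153 with under 2 CPM in the others, 114 with TMM-scaled libraries and 74 by deposited TPM, of which 62 were shared. Leaving out 1 of the other libraries gave 125 to 140 members. A 10-fold criterion in place of 5-fold, added after seeing the data, took 755 gene IDs. It left monocyte genes at 2, interferon genes at 3, antigen presentation genes at 7, lysosomal genes at 5, resident macrophage genes at 1, mast cell or basophil genes at 1 and platelet genes at 0.

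Members called between the KO and WT labels numbered 0 under every alternative run. The rule read the same libraries and left each member high in 1 WT library only, so that 0 says nothing about the members under any setting. Without WT replicate 3 only values under 1 CPM were compared for them. At 1 CPM in 3 libraries no member was left to test, and DESeq2 left every member's p-value blank with and without the filter. Over all genes, DESeq2 called 101 and, without the filter, 121, and limma-voom without the filter 15 (the last pair added after seeing the data). Leaving out 1 library gave 1 call (without KO replicate 1) to 92 calls (without WT replicate 3) over all genes, and 0 members.

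With a replicate block, 0 members and 2 genes in all were called. Deviations of same-numbered libraries from their group means had correlations of 0.063, -0.11 and 0.0084. Such values cannot settle whether libraries of the same number share an animal or a batch.

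Depth limits the low side, where 1 CPM is 17.8 to 30.2 counts. With 1 library high, no replicate error stands behind its levels. The cause of each change with the setting was not tested.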
